A study of Oryza sativa Indica Group with 6 samples.

Results

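Metallothioneins are small proteins rich in cysteine, whose sulphur atoms bind zinc, copper and other metal ions. They are known as buffers of zinc and copper in the cell, and their cysteines also react with reactive oxygen species. In plants they form a family of several types that differ in the arrangement of the cysteines, and pollen is a tissue in which metal supply and oxidative balance have to be kept while the anther wall around it breaks down.

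The metallothionein genes were those with a symbol or synonym MT1, MT2, MT3 or MT4 followed by 1 letter from A to G in the RefSeq gene table, with or without the prefix Os. This rule found 8 genes, and 7 of them had at least 1 probe set paired with that gene alone, with 17 such probe sets among the 57194 tested. MT2C (gene 4337596) had 5 probe sets, MT2A (gene 4325218) and MT2B (gene 4326409) had 4 each, and MT1A (gene 4351213), MT1B (gene 4332487), MT4A (gene 4352580) and MT4C (gene 4352582) had 1 each. MT4B (gene 4352563) was represented only on a probe set paired with several genes. The naming schemes of the family cross: MT2C also carries the name OsMT2b, MT2B the name OsMT2c, MT4A the name OsMT1b and MT4C the name OsMT1c. The gene IDs above fix which gene is meant. In the RefSeq gene order MT4A and MT4C are separated by 1 other protein-coding gene, and MT4B and MT4A by 13.

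Total RNA of the male gametophyte of Guichao No.2, a variety of Oryza sativa Indica Group (rice) grown in the field, was hybridised to Affymetrix arrays at 3 stages, with 2 arrays per stage that the labels call biological replicates. Uninucleate microspores (UNM) hold a single nucleus, bicellular pollen (BCP) a vegetative and a generative cell, and tricellular pollen (TCP) a vegetative cell and the sperm cells. The labels name no treatment, and how the gametophytes were separated from the anther is not given in the sources used here. Signals are log2 values from RMA for each probe set, the group of probes designed against a transcript, so that a difference of 1 is a doubling. Where a gene has several probe sets they are numbered by their mean signal, as MT2C-1 to MT2C-5, and the plot of signals gives the array name of each.

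A probe set was called, and is said to have risen or fallen, where limma gave a Benjamini-Hochberg adjusted p under 0.05 over all tested probe sets and the difference was at least 1. Background was taken as the 95th percentile of the 64 reporter-gene probe sets, which lay between 5.00 and 5.84 on the 6 arrays. A signal under it on its own array is described as not above background. The 2 arrays of a stage had a Pearson's r of 0.985 to 0.993 over probe sets, which are not independent of each other. The pollen wall-loosening genes EXPB9 and EXPB10 rose at least 221-fold and 73.0-fold from UNM to BCP. With so few arrays, their number limits the precision, and the labels do not say which plants or collections separate the replicates, so the spread behind the p-values may be technical.

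The suffix of a probe set name tells what its probes match. A probe set ending in _at was designed to be unique, one ending in _a_at matches several transcripts of a single gene, one ending in _s_at matches several transcripts that may come from different genes, and one ending in _x_at holds probes that can bind other sequences. Of the 17 probe sets 11 carried _a_at, _s_at or _x_at, 6 of them _x_at. These include all 5 of MT2C and the 3 of MT2B that were above background, so that the changes of both genes have no value on a probe set of unique design. The brightest probe sets of MT2A are also among them, MT2A-1 with _s_at and MT2A-2 with _x_at. Whether related metallothionein transcripts gave signal on these 11 was not tested.

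MT2C signal fell up to 83.8-fold after the microspore stage on probe sets above background throughout. MT2A kept a signal above 12 at all 3 stages on its brightest probe set, MT2A-1, which ends in _s_at. On MT2A-3 and MT2A-4, of unique design, its stage means were 5.28 to 8.14, and MT2A-3 was not above background in TCP. From UNM to BCP, 9 of the 17 probe sets fell and 1 rose, where 12.3% of all tested probe sets fell, 9.27% rose and 21.6% did either. From BCP to TCP 2 rose and 2 fell, against 5.94% and 13.3% of all (19.2% together). From UNM to TCP 8 fell and 0 rose, against 17.9% and 12.1% (30% together). Of these 0 rises in limma there were 2 with no minimum difference and 3 at an unadjusted p under 0.05. Dim probe sets, with a mean under background at every stage, lower the shares of all tested probe sets. With them left out, 25.6% fell and 19.5% rose from UNM to BCP. Of the 17, 13 then remained, with the same 9 falls and 1 rise. From BCP to TCP the shares were 28.5% and 11.3%, and from UNM to TCP 38.1% and 21%. Across the 3 stages the moderated F test called 11 of the 17 probe sets, against 36.3% of all. The median difference of the 17 was -1.40, 0.24 and -0.99 in the 3 comparisons, where the median of all tested probe sets was 0.06, 0.14 and 0.20. Probe sets of a gene share their target, so these are not 17 independent measurements.

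**Figure D1:**
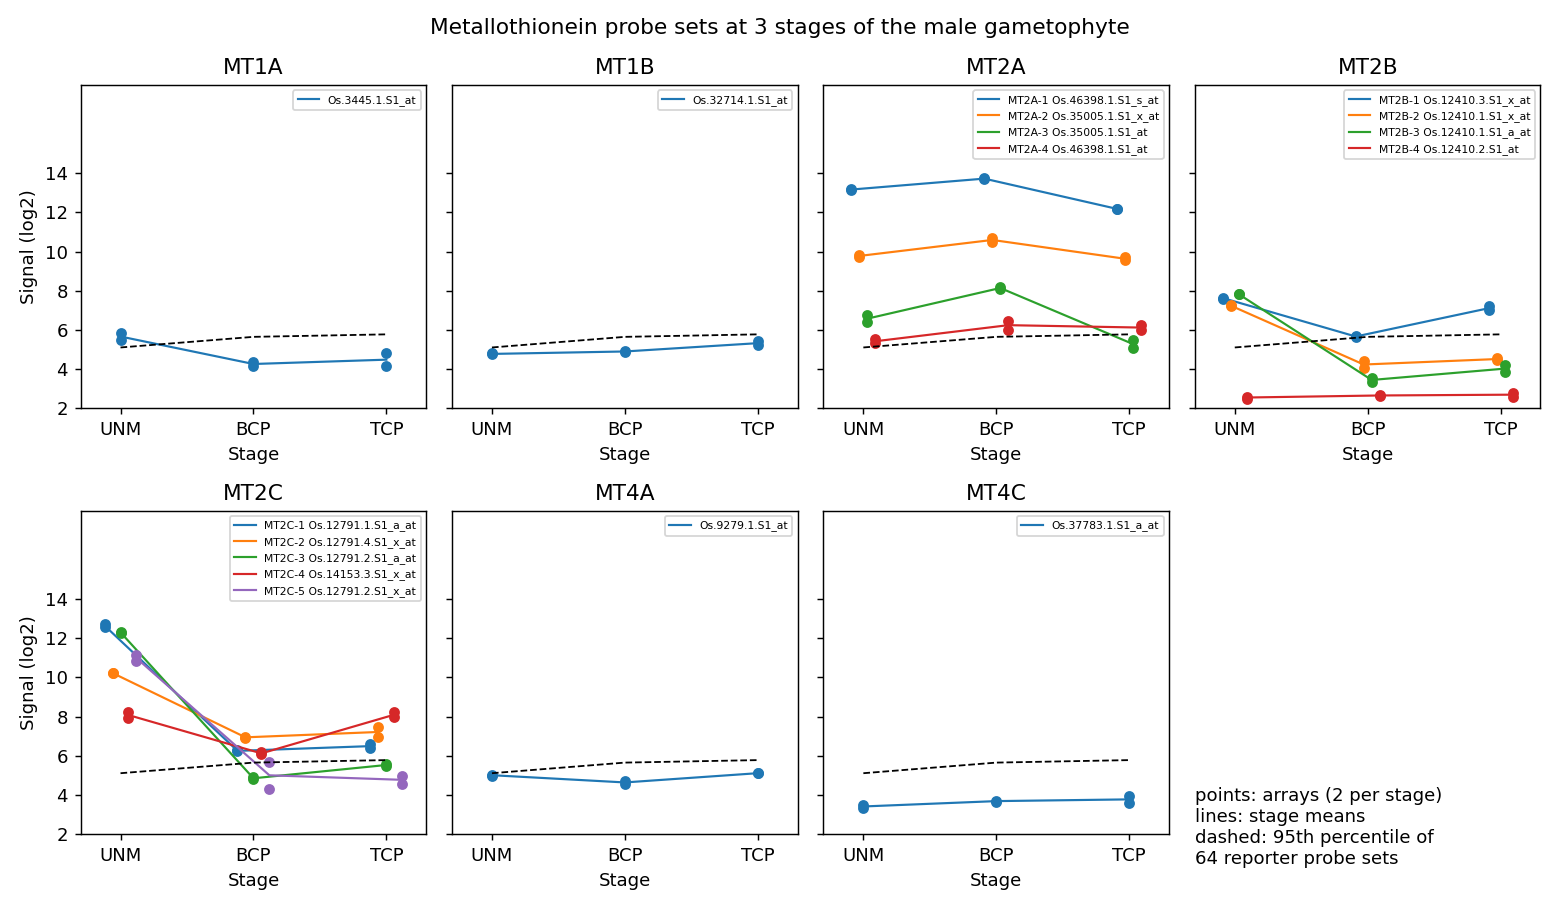
Signal on the log2 scale (vertical axis) of the 17 metallothionein probe sets at UNM, BCP and TCP (horizontal axis), in a panel per gene. Points are arrays, 2 per stage, lines join the stage means and the dashed line is the mean 95th percentile of the 64 reporter probe sets: MT2C stands at 12.64 in UNM and 6.25 in BCP on MT2C-1, MT2A stays at 12.18 or above in stage mean on MT2A-1, and MT1B, MT4A and MT4C lie under the dashed line.

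MT2C had its high stage in the microspore. On MT2C-1 the signal was 12.54 and 12.74 in UNM, 6.23 and 6.27 in BCP and 6.39 and 6.60 in TCP. Both UNM arrays lay far above all 4 later arrays, and the BCP and TCP arrays lay close together, all of them still above background. The difference from UNM to BCP was -6.39 (95% interval -6.72 to -6.06, adjusted p = 2.24e-07 by limma), an 83.8-fold lower signal. Of all tested probe sets 1.17% fell by more than 4 there. From UNM to TCP it was -6.15 (-6.48 to -5.81, adjusted p = 1.05e-07). From BCP to TCP it was 0.24 (-0.09 to 0.58, adjusted p = 0.223), which was not called. Falls to both later stages with no call between these were found for 7.3% of all tested probe sets.

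Another 3 probe sets of MT2C gave the same calls in the 3 comparisons. MT2C-3 measured 12.28 and 12.31 in UNM, 4.80 and 4.91 in BCP and 5.48 and 5.58 in TCP. The later 4 values were not above background, so the fall was at least 99.8-fold to BCP and at least 91.4-fold to TCP, where the fitted differences were -7.44 (SE 0.12) and -6.76 (SE 0.12) with adjusted p = 1.34e-07 and 6.29e-08 by limma. These bounds, here and below, set the mean of the higher stage against the higher of background and signal on each array of the lower stage.

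MT2C-5 measured 11.12 and 10.85 in UNM, 4.30 and 5.71 in BCP and 4.99 and 4.55 in TCP. Its BCP arrays were the farthest apart of any stage and probe set of the family, with 1 of the 2 above background. The fall to BCP was -5.98 (SE 0.42, adjusted p = 2.95e-05 by limma), and it was -5.27 to -6.68 when single arrays were left out.

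MT2C-2 measured 10.21 and 10.23 in UNM, 6.97 and 6.91 in BCP and 7.49 and 6.94 in TCP. All 6 values were above background, and the falls, -3.28 to BCP and -3.01 to TCP (SE 0.19 each), were smaller than those of the other 3. From UNM to BCP the size of the fall of MT2C thus ran from -3.28 to -7.44 over these 4 probe sets, a spread larger than that between arrays.

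MT2C-4 had another course. The annotation pairs it with MT2C, and this pairing was not checked against probe sequences. It measured 8.21 and 7.95 in UNM, 6.07 and 6.17 in BCP and 7.98 and 8.21 in TCP. The UNM and TCP arrays overlapped, and the BCP arrays lay below both. It fell from UNM to BCP by 1.95 (SE 0.15, adjusted p = 4.89e-05 by limma) and rose from BCP to TCP by 1.97 (SE 0.15, adjusted p = 5.07e-05), and the difference from UNM to TCP was 0.02 (95% interval -0.34 to 0.38). Its interval for UNM to TCP did not meet those of the other 4, whose upper bounds were between -2.56 and -6.47. Only 0.871% of all tested probe sets fell from UNM to BCP and then rose. When arrays were scaled by their hybridization controls its difference from BCP to TCP was 0.96 with the cre controls and 0.74 without them, neither of them called, and from UNM to TCP it was a called -1.23 and -1.47.

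By stage mean MT2B was also highest in the microspore on 3 of its 4 probe sets, though on MT2B-1 the difference to TCP was not called. MT2B-3 measured 7.84 and 7.81 in UNM, 3.35 and 3.56 in BCP and 4.22 and 3.85 in TCP. The UNM arrays were above background and the later 4 were not. The fall was at least 4.52-fold to BCP and at least 4.13-fold to TCP, with fitted differences of -4.37 and -3.80 (SE 0.16 each) and adjusted p = 1.65e-06 and 1.38e-06 by limma. MT2B-2 gave the same calls, from 7.28 and 7.21 in UNM to 4.43 and 4.05 in BCP and 4.47 and 4.58 in TCP, with falls of at least 3.01-fold and 2.76-fold.

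MT2B-1 went down and up again like MT2C-4. It measured 7.60 and 7.66 in UNM, 5.69 and 5.65 in BCP, and 7.01 and 7.22 in TCP. It fell to BCP by 1.96 (SE 0.13, adjusted p = 2.28e-05 by limma) and rose to TCP by 1.44 (SE 0.13, adjusted p = 0.000123), and the difference from UNM to TCP was -0.52 (95% interval -0.83 to -0.21), under the minimum of 1. In BCP 1 of the 2 arrays was above background. With the hybridization controls setting the scale, the BCP to TCP difference was 0.43 with cre and 0.21 without, neither of them called, and the UNM to TCP difference was a called -1.77 and -2.01. The remaining probe set of MT2B, MT2B-4, was between 2.51 and 2.80 on all 6 arrays and never above background, so it cannot tell a low level of MT2B from none.

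MT2A differed from both in its course. On MT2A-1 the signal was 13.14 and 13.19 in UNM, 13.70 and 13.74 in BCP and 12.16 and 12.19 in TCP. The 3 stages did not overlap, with BCP highest and TCP lowest. The difference to BCP was 0.56 (95% interval 0.28 to 0.84, adjusted p = 0.00877 by limma), under the minimum of 1. The fall from BCP to TCP was -1.55 (-1.83 to -1.27, adjusted p = 4.88e-05), a 2.92-fold lower signal. The difference from UNM to TCP, -0.99 (SE 0.12), was just short of the minimum.

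MT2A-3, with the suffix for a unique design, moved the same way and further. It measured 6.75 and 6.42 in UNM, 8.10 and 8.19 in BCP and 5.49 and 5.08 in TCP. The stages again did not overlap. It rose by 1.56 (SE 0.19, adjusted p = 0.000457 by limma) and then fell by at least 5.15-fold to TCP, where it was not above background (fitted difference -2.86, SE 0.19, adjusted p = 2.16e-05). From UNM to TCP it fell by at least 1.74-fold, with a fitted difference of -1.30. A rise to BCP followed by a fall was called for 4.03% of all tested probe sets.

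The other 2 probe sets of MT2A were not called in any comparison. MT2A-2 measured 9.85 and 9.71 in UNM, 10.51 and 10.68 in BCP and 9.55 and 9.72 in TCP, with differences of 0.82 to BCP and -0.96 from BCP to TCP. MT2A-4 measured 5.53 and 5.33 in UNM, 6.49 and 6.01 in BCP and 6.27 and 5.99 in TCP. Its differences were 0.82 to BCP (SE 0.20) and -0.12 to TCP (SE 0.20). All 4 probe sets of MT2A had both BCP arrays above both UNM arrays, and on MT2A-4 BCP and TCP overlapped.

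On their own probe sets MT1A, MT1B, MT4A and MT4C had little or no signal. MT1A measured 5.84 and 5.50 in UNM, 4.14 and 4.39 in BCP and 4.15 and 4.83 in TCP, and its 2 UNM arrays alone were above background. It fell to BCP by 1.40 (SE 0.25, adjusted p = 0.00353 by limma) and was lower in TCP by a called difference of -1.18 (SE 0.25, adjusted p = 0.00583). The background was higher on the later arrays, and the bound was only 1.01-fold for BCP, with none for TCP. Without TCP replicate 1 the second of these differences was -0.84, and it was no longer called.

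MT1B was between 4.76 and 5.42, MT4A between 4.57 and 5.12 and MT4C between 3.35 and 3.94 over the 6 arrays, none of them above background on any array. Their 9 differences between stages ran from -0.37 to 0.55, and none was called. Not above background means only that these probe sets cannot tell a low level from none. Another probe set, paired with MT4A and with a gene that RefSeq calls a pseudogene, was bright, and its signal cannot be given to either gene. It measured 12.31 and 12.30 in UNM, 11.68 and 11.58 in BCP and 11.49 and 11.56 in TCP. It was lower after UNM on every array, with differences of -0.68 to BCP and -0.78 to TCP (SE 0.12 each), under the minimum of 1. The level of MT4A therefore cannot be read from its own probe set alone. A probe set paired with MT4B, MT4C and 1 other gene was between 4.22 and 4.63, not above background on any array.

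**Figure D2:**
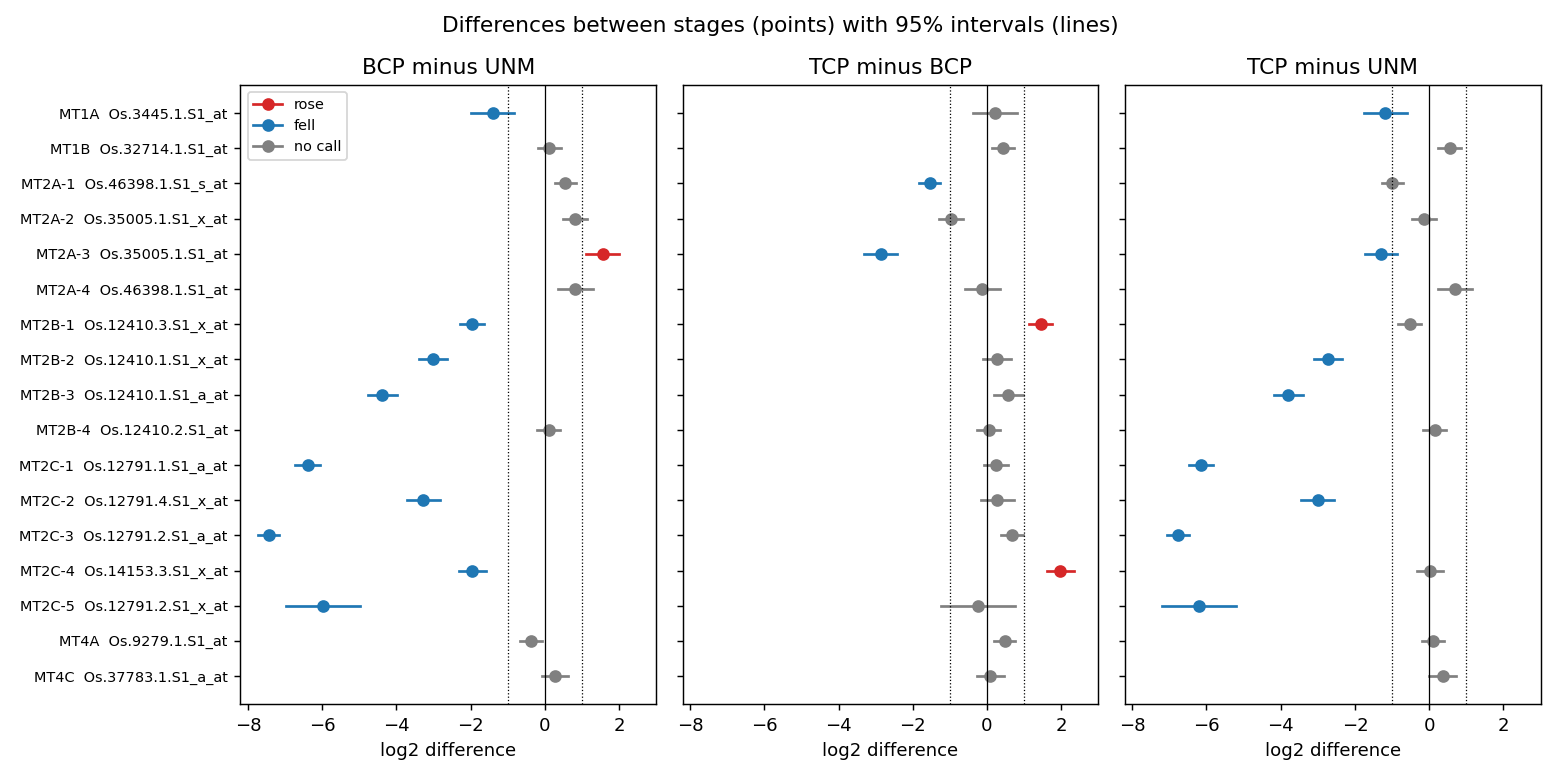
Differences between stages on the log2 scale (horizontal axis) of the 17 probe sets (rows) in the 3 comparisons (panels), with 95% intervals from limma, and dotted lines at the minimum of 1. MT2C has falls of -5.98 to -7.44 on 3 probe sets from UNM to BCP, while all 4 probe sets of MT2A lie to the right of 0 there, from 0.56 to 1.56.

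By stage mean UNM was highest for MT2C on 4 of its 5 probe sets and for MT2B on the 3 that were above background. BCP was highest for MT2A on all 4. Among the probe sets paired with MT2C and MT2B, BCP and TCP differed by a called amount on MT2C-4 and MT2B-1. The directions from UNM to BCP were the same for all 10 called probe sets under each scaling of the arrays tried, whereas neither rise from BCP to TCP was called once the hybridization controls set the scale.

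The median difference of all tested probe sets moves with that choice. From BCP to TCP it was 0.14 with the deposited values, 0.34 with each array centred at its 75th percentile and -0.87 with each array scaled to its 27 hybridization controls, labelled transcripts that are added to each sample in equal amounts. From UNM to BCP the 3 values were 0.06, 0.23 and -0.17, and from UNM to TCP 0.20, 0.56 and -1.05. These controls had means of 8.31 to 8.88 over the UNM and BCP arrays and of 9.77 and 9.85 over the TCP arrays, which stood apart. From UNM to BCP the difference of MT2C-1 was -6.39 with the deposited values, -6.22 with that centring and -6.62 with that scaling. For MT2C-4, the smallest fall of MT2C, it was -1.95, -1.79 and -2.19. Whether bright probe sets shift otherwise than the median was not tested.

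The named genes with the course most like that of MT2C were sought among 2303 genes by the root mean square difference over the 6 arrays, after each probe set was centred on its own mean. C4, a lipid transfer protein gene of the tapetum, was nearest, with a root mean square difference of 0.06. It measured 10.61 and 10.70 in UNM, 4.38 and 4.25 in BCP and 4.42 and 4.63 in TCP. GLT2 followed at 0.11, FIL1 at 0.16, the glutamate dehydrogenase gene GDH3 at 0.21 and JAZ13, of the repressors of jasmonate signalling, at 0.24. In all 5 the later arrays were not above background, whereas MT2C-1 was above it on all 6. With 3 stages and 6 arrays many genes share a course, and the likeness is a description.

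**Figure D3:**
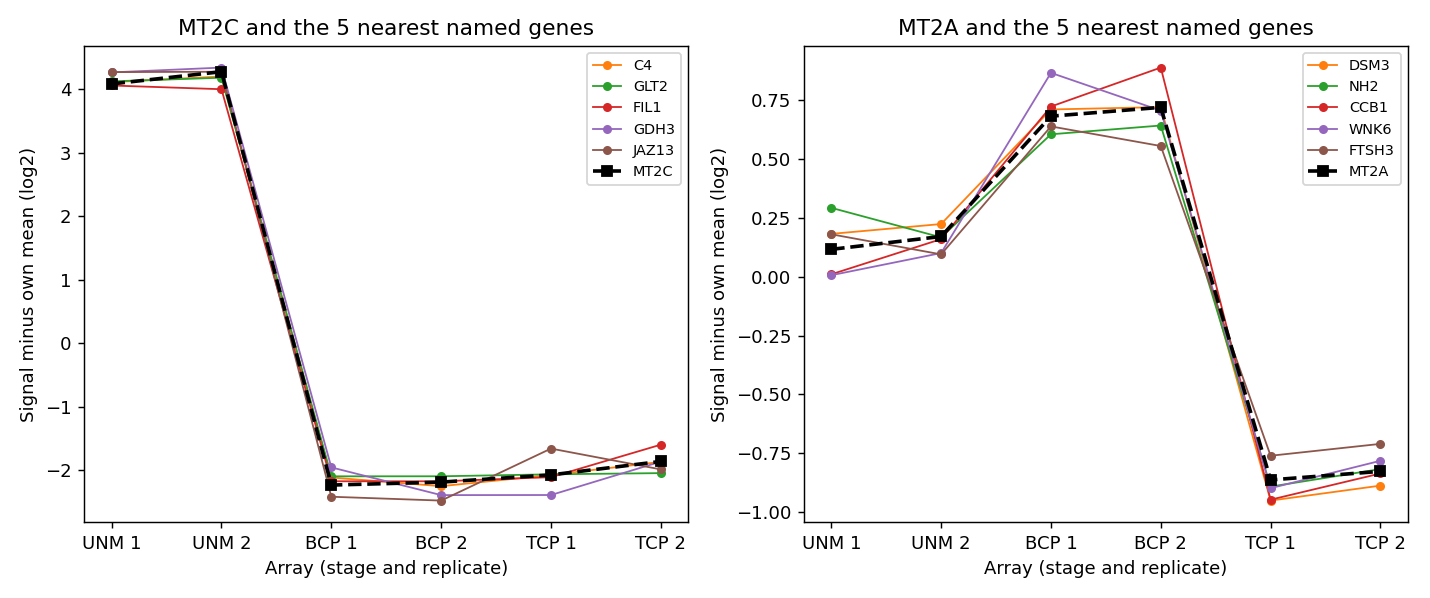
Signal minus the probe set's own mean on the log2 scale (vertical axis) on the 6 arrays (horizontal axis), for MT2C and MT2A (black squares, broken lines) and the 5 named genes nearest to each (coloured circles). C4 is nearest to MT2C with a root mean square difference of 0.06, and DSM3 to MT2A with 0.06.

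The genes nearest to MT2A, on MT2A-1, were DSM3 at 0.06, NH2 and CCB1 at 0.09, the kinase gene WNK6 at 0.10 and FTSH3, of a family of membrane-bound proteases, at 0.10. DSM3 measured 8.40 and 8.44 in UNM, 8.93 and 8.94 in BCP and 7.26 and 7.33 in TCP. For MT2B the brightest probe set was MT2B-1, which goes down and up again, and the genes nearest to it were SAP16 and MCM3 at 0.16, CIPK29 at 0.18, gid1, the gibberellin receptor, at 0.20 and HDR1 at 0.22. MT1A was above background in UNM only, and MT1B, MT4A and MT4C on no array, so nothing was read from their nearest genes, which were GLU8, EXP3, TIP4-2 and CRK6.

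MT2C-4 and MT2B-1 fell to BCP and rose again to TCP, whereas the other called probe sets of MT2C and MT2B fell to both later stages. Most markers of the anther wall also fell to both. The tapetum, the inner layer of that wall, feeds the microspores and is lost as pollen matures. Of 12 measured marker genes 9 fell from UNM to BCP and 0 rose, and 10 fell and 0 rose from UNM to TCP (by limma, and also 0 rises at an unadjusted p under 0.05 in either), where 25.1% and 37.7% of all genes, each represented by 1 probe set, fell. C4 and C6, another lipid transfer protein gene, fell at least 32.0-fold and 35.9-fold to BCP. The summed signal of the 12 genes on the linear scale was 7916 and 8111 in UNM, 1001 and 974 in BCP and 601 and 565 in TCP. Of the 12, 10 were above background on each UNM array, 2 on each BCP array and 2 and 1 on the TCP arrays, and C4 and C6 were not above it after UNM. The 2 in BCP were OsCP1, with a stage mean of 8.93, and the regulator gene GAMYB, with 8.37. In TCP these stood at 8.41 and 4.49. The marker name CP1 had matched both CP1 and OsCP1. The part of anther-wall RNA in the UNM signal of MT2C and MT2B was not tested. In bulk samples, fewer cells of a type and less RNA per cell cannot be told apart.

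On all 4 probe sets of MT2A the BCP arrays were above the UNM arrays in the deposited values, but only MT2A-3 was called. On MT2A-1 the difference of 0.56 became 0.26 after another quantile normalisation (adjusted p = 0.149 by limma). It was 0.33 when scaled by hybridization controls with cre (adjusted p = 0.592 by limma). With that scaling MT2A-2 and MT2A-4 stood at 0.58 and 0.59 (adjusted p = 0.173 and 0.167 by limma), while MT2A-3 was still called at 1.33. Of the green-tissue markers the chlorophyll-binding protein gene CAB2R fell at least 51.9-fold from UNM to BCP, while RBCS was not called there and rose from UNM to TCP by 1.01 (SE 0.18, adjusted p = 0.00246 by limma). That rise was at the minimum of 1 and was not called when hybridization controls set the scale. The actin signal at the 3' end minus that in the middle, a sign of RNA quality, was 3.06 and 3.15 on the UNM arrays and 1.81 to 1.93 on the later 4. For GAPDH it was 0.71 to 1.29 in UNM, 0.91 to 1.10 in BCP and 1.51 to 1.60 in TCP. The part of RNA quality in these differences was not tested.

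Other genes of metal handling, with 49 of 59 listed genes measured, did not move in a single direction. From UNM to BCP 10 rose and 7 fell (17.1% and 25.1% of all genes), or 9 and 10 when scaled by hybridization controls with cre (14.5% and 29.9% of all genes). The rises were led by genes of the YSL family, which transport metals bound to nicotianamine in grasses. YSL4 rose to 11.90 ± 0.01 in BCP (SD, n = 2), YSL7 to 11.10 ± 0.03 and YSL18 to 8.91 ± 0.01, the first 2 at least 110-fold and 63.3-fold over background in UNM. VIT1, a transporter of iron into the vacuole, fell at least 27.5-fold from 10.44 ± 0.13, YSL6 fell by 2.97 (SE 0.14), and NAAT1, an enzyme of phytosiderophore synthesis, fell at least 3.71-fold. VIT1 was not above background in BCP or TCP.

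From BCP to TCP 11 metal genes rose and 9 fell (8.52% and 28.6% of all genes), but with that scaling 3 rose and 20 fell, where 3.56% and 54.1% of all genes did. YSL1 rose at least 19.9-fold to 9.97 ± 0.08, and the copper transporter genes COPT2 and COPT7 rose by 5.09 (SE 0.15) and 2.49 (SE 0.14). CCS, the copper chaperone of superoxide dismutase, fell at least 6.87-fold from 8.56 ± 0.04 and YSL16 at least 1.25-fold. Nramp1, of a family of divalent metal transporters, had a difference of -3.86 (SE 0.16). From UNM to TCP 12 rose and 10 fell (14.4% and 37.7% of all genes), or 6 and 27 with that scaling (7.42% and 69.1%). YSL7, COPT2, YSL4 and YSL1 led the rises with at least 230-fold, 105-fold, 30.5-fold and 29.0-fold, and YSL6 and VIT1 the falls with at least 28.3-fold and 25.2-fold. The median difference of the 49 genes was -0.11, 0.09 and 0.04 in the 3 comparisons, against -0.12, -0.06 and -0.34 for all genes.

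Of the genes that make or remove reactive oxygen species 13 of 14 were measured. From UNM to BCP 6 of them rose and 3 fell, where 17.1% and 25.1% of all genes did, and all 6 rises were of ascorbate peroxidases, which reduce hydrogen peroxide. APX2 rose from 9.73 ± 0.07 to 13.16 ± 0.01, APX8 by 2.74 (SE 0.18) and APX4 by 2.21 (SE 0.15). APX5 fell by 2.38 (SE 0.16), and the catalase gene catA and RBOHB, an NADPH oxidase that makes superoxide, fell at least 1.56-fold and 2.13-fold.

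From BCP to TCP 8 of the 13 fell and 0 rose by limma, where 28.6% and 8.52% of all genes did. There was 1 rise without TCP replicate 1, and there were 2 at an unadjusted p under 0.05. Scaled by hybridization controls with cre, 9 fell and 0 rose, where 54.1% and 3.56% of all genes did. In the deposited values APX4 fell at least 8.96-fold. The differences were -3.55 for APX6, -3.12 for APX1, -2.74 for APX7, -2.56 for the superoxide dismutase gene SodCc1 and -2.02 for APX2, with an SE of 0.12 to 0.21. APX1, APX2, APX4, APX6 and APX7 each rose to BCP and then fell, a course called for 4.03% of all tested probe sets, dim ones included. Its share among all genes was not counted. From UNM to TCP 2 rose and 9 fell (14.4% and 37.7% of all genes), or 0 and 11 with hybridization controls with cre setting the scale (7.42% and 69.1%). APX8 rose by 1.81, APX6, APX5 and the superoxide dismutase gene sodA had differences of -2.16, -2.13 and -2.13, and RBOHB and catA fell at least 1.95-fold and 1.43-fold. The list's median difference was 0.93, -1.69 and -1.63 in the 3 comparisons.

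**Figure D4:**
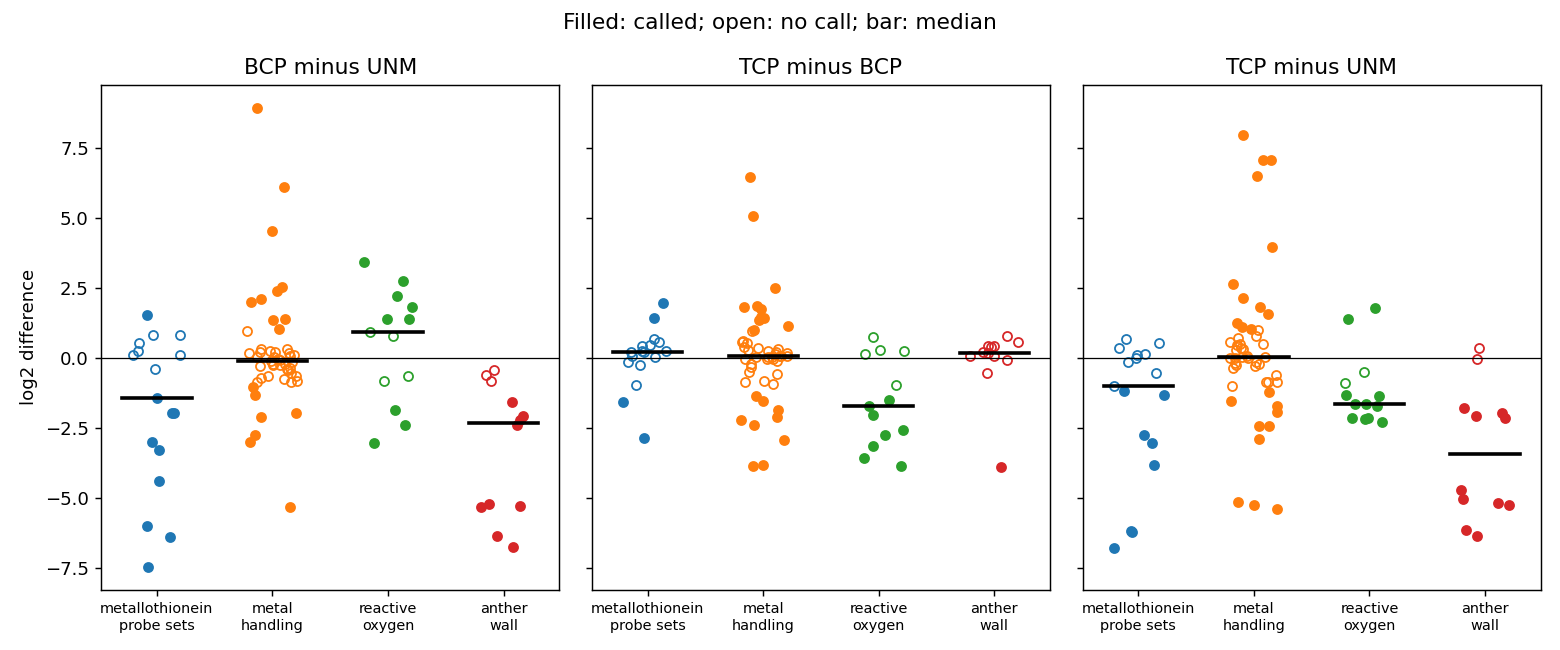
Differences on the log2 scale (vertical axis) of the 17 metallothionein probe sets and of the measured genes of metal handling (49), reactive oxygen (13) and the anther wall (12), in the 3 comparisons (panels). Filled points were called, open points were not and bars are medians: from UNM to BCP the medians are -1.40, -0.11, 0.93 and -2.30.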

How the data were processed

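The deposited values, 1 per probe set and array, are log2 signals that the authors made with RMA, as the submitters' processing notes list it, without a version here. Whether all 6 arrays went through it jointly is not stated in those notes as used here. The 187 control probe sets were left out of the tests. Of 57194 tested probe sets 22436 had 1 gene in the platform annotation, 95 had several and 34663 had none. Names came from the RefSeq table of another assembly, whose coordinates were used only for the order of the genes. No sequences were used here.

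Stages were compared in 1 fit of the 6 arrays with limma 3.58.1 in R 4.3.3, with residual degrees of freedom 3 and prior 3.87. All tests were two-sided, and the comparisons share arrays. The fit was tested on simulated data. A listed gene was represented by its probe set with the highest mean. Up to 6 passing genes per list and comparison, largest difference first, were named, beside all metallothioneins and the 5 nearest genes of MT2A, MT2B and MT2C (for genes at or near background, only the nearest). Members and lists were chosen with earlier results of these data known. Alternatives were another quantile normalisation, centring on the 75th percentile, scaling by hybridization controls, leaving out dim or shared probe sets, an intensity trend with a robust prior, no minimum difference, the replicate number as a block, dropping single arrays, and a fit restricted to the pair of stages in question. The scaling without cre was chosen after seeing the data.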

Additional observations from a re-analysis of the deposited data

How the results depend on the processing

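Of 771 single differences under 16 alternatives, 723 stayed on the same side of the call, 7 lost it, 31 gained one and 10 reversed. In 41 of the 723 an uncalled difference changed sign. Outside the scaling by hybridization controls, 3 calls were lost: MT1A from UNM to TCP (-0.82 after centring on the 75th percentile, -0.84 without TCP replicate 1) and MT2A on MT2A-3 from UNM to TCP (-0.94 after that centring). All 10 reversals were uncalled values that fell after scaling by those controls. With cre they were, from UNM to TCP, MT2B on MT2B-4 (-1.10), MT2C on MT2C-4 (-1.23) and MT4A (-1.14). Without cre these were -1.35, -1.47 and -1.39, MT4C was -1.13, and from BCP to TCP MT1A, MT2B-4 and MT4C were -1.01, -1.19 and -1.14. The cause was not tested.

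The counts called were 10 (UNM to BCP), 4 (BCP to TCP), 8 (UNM to TCP) and 11 (F test). Shared probe sets were here all those ending in _a_at, _s_at or _x_at. With them left out, 6 probe sets remain, and the counts were 2, 1, 2 and 2, since this removes all of MT2C and every called probe set of MT2B. Among those removed, MT2C-1, MT2C-3 and MT2B-3 end in _a_at, the suffix for several transcripts of a single gene. Without a minimum difference the count from BCP to TCP was 9. After scaling by the controls without cre it was 8, where 60% of all probe sets were called. From UNM to TCP it was 14 with cre and 15 without, where 57.7% and 72.8% of all were called. Leaving out each array in turn gave 10 to 11, 4 to 5, 7 to 9 and 11 to 12, where the lone array of a stage is assumed to vary like the others. With the replicate number as a block the counts were again 10, 4, 8 and 11. Same-numbered arrays had deviations that correlated by -0.048, 0.010 and -0.072, so no shared effect of the replicate number was seen. With 2 arrays per stage this cannot tell whether same-numbered samples were collected together. Leaving out dim probe sets kept 13 of the 17. Signal near background limits the size of the falls of MT2B, MT1A and part of MT2C.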
